A study of Rattus norvegicus with 12 samples.

Results

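Enzymes that conjugate, reduce, hydrolyse or oxygenate drugs, food chemicals and lipid products were described in scrapings of rat jejunal mucosa, the inner layer of the part of the small intestine that follows the duodenum. They comprise the glutathione transferases (symbols starting with Gsta, Gstm, Gstp, Gstt, Gsto, Gstk or Mgst), the sulfotransferases (Sult), the aldo-keto reductases (Akr), the carboxylesterases (Ces), the epoxide hydrolases (Ephx) and the flavin monooxygenases (Fmo). A probe set, the group of oligonucleotides that measures a transcript on an Affymetrix array, was a member where its only annotated gene symbol started with a family name followed by a digit. This gave 73 of 31142 probe sets (controls left out), 52 on the array type 230A and 21 on 230B. They stand for 63 of 13810 named genes, of which 5 were on both types. The 2 groups are rats labelled high Fe and rats labelled low Fe, with 3 samples each, all labelled 12 Week. Keywords in the labels of the 230A samples name iron deficiency and anemia, and strain, sex and diet composition are not given in the labels used here. Each sample was measured on both array types, which makes 12 arrays. The titles call each sample a numbered Group, and these numbers serve as replicate numbers here. Nothing in the labels ties the samples to different rats or excludes pooling, and the p-values therefore describe the spread of these samples only, which may be technical.

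These families make up much of the chemical defence of the intestinal lining. Glutathione transferases join the tripeptide glutathione to reactive molecules, sulfotransferases transfer a sulfate group from an activated donor to hydroxyl groups, and both kinds of product are pumped out of the cell. Aldo-keto reductases turn aldehydes and ketones into alcohols, carboxylesterases split esters of drugs and lipids, epoxide hydrolases open epoxide rings with water, and flavin monooxygenases add oxygen to nitrogen and sulfur atoms. Many glutathione transferase genes are known targets of NFE2L2 (Nrf2), a transcription factor that responds to electrophiles and binds antioxidant response elements.

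Promoters are shown because that element is the best known regulatory sequence of the family. The window runs from 250 bases before to 50 bases after the annotated start (RefSeq, GRCr8), and 51 of the 63 genes had one in the table used. The core TGACNNNGC, searched on both strands, occurred in 6 of these 51 (11.8%) and in 12.2% of 27457 promoters of all genes, so its share among the members was near that of all genes. Of the 6, 5 belonged to the 16 glutathione transferases other than Mgst with a promoter and 1 to the 12 aldo-keto reductases, Akr1c15. Transferases other than Mgst are called cytosolic below, although Gstk1 among them is an enzyme of mitochondria and peroxisomes. The 4 with a tested probe set are printed 5′ to 3′ on the gene's strand, with the core in capitals: Gstp1 (chr1:210769656-210769955, minus strand), Gsta3 (chr9:31154739-31155038, plus strand), Gstm5 (chr2:198219519-198219818, plus strand) and Gstm7 (chr2:198260270-198260569, minus strand).
Gstp1: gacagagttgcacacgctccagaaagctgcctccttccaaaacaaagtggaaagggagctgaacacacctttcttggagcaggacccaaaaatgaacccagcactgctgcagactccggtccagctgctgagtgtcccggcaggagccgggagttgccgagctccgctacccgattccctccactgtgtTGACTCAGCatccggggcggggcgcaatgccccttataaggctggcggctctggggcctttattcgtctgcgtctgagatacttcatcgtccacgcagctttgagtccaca
Gsta3: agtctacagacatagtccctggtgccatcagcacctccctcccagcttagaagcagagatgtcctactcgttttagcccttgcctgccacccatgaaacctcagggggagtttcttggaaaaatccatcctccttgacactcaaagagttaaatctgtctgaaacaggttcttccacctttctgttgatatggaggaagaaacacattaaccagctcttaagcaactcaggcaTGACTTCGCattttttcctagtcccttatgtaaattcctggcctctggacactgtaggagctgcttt
Gstm5: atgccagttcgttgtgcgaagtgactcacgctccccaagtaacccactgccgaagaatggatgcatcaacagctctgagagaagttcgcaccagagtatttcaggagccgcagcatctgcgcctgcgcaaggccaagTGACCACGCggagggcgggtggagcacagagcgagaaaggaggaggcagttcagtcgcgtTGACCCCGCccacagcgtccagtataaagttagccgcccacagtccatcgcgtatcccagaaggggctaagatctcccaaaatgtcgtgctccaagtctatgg
Gstm7: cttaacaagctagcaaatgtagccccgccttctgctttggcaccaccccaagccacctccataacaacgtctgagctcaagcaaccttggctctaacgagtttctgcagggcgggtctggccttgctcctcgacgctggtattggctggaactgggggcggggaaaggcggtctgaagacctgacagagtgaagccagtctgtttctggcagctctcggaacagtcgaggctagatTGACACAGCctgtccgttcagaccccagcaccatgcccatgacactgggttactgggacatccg
The first base of the core lay 61 bases before the start in Gstp1 (TGACTCAGC), 17 in Gsta3 (TGACTTCGC) and 14 in Gstm7 (TGACACAGC). Gstm5 held TGACCACGC at 113 and TGACCCCGC at 53 bases before the start. Further motifs were searched the same way: GCGTG, the xenobiotic response core, which a TGACNNNGC match can overlap, was in 13 of 51 member promoters (31.1% of all), ACGTG, the hypoxia response core, in 8 (19.7% of all), and GTTAAT, a core of HNF1 sites, in 6 (7.37% of all). A match describes the letters only and is not a binding site.

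Signals are linear intensities that the authors scaled to an equal trimmed mean on every array of a type, which hides any shift common to most genes, and they are compared between samples for 1 probe set at a time. Array medians lay between 154 and 176 for 230A and between 259.5 and 302.6 for 230B. On 230A the GAPDH controls gave a 5' over 3' signal ratio, which reflects how intact the labelled RNA was, of 0.7942 to 0.8106 on 3 arrays (low Fe replicates 2 and 3, high Fe replicate 1) and of 0.876 to 0.9216 on the other 3. For beta-actin it was 0.05391 in low Fe replicate 3 and 0.5907 to 0.836 on the other arrays. On 230B the beta-actin ratio was 0.04732 in low Fe replicate 3 and 0.499 to 0.8955 on the other arrays. The GAPDH ratio there was 0.8212 to 0.9387. All 9 enterocyte markers on 230A were tested, with summed signals of 93481 to 153500 in high Fe and 96420 to 123904 in low Fe. Of these, 8 had a log2 difference (low Fe minus high Fe) below 0, with a median of -0.16. In limma 0 of the 9 had an unadjusted p under 0.05. Fabp2, at 10216.9 to 18840.6, gave 0.02, and the enterocyte marker Vil1 on 230B gave -0.16. Of the 3 Paneth cell markers, Defa5 and Mmp7 did not exceed 12.7 on any array, while Lyz2, which macrophages also express, was at 1120.6 to 2702.6. The ileal transporter Slc10a2 was at 80.9 to 139.1. Of the 4 liver markers, Alb was at 43.0 to 180.8, Ttr at 115.7 to 222.4 and Serpina1 at 107.0 to 158.0, while Cps1, which the small intestine also expresses, was at 2929.6 to 5251.9. Summed signals of 7 crypt and cycling cell markers were 1529 to 1742 in high Fe and 2456 to 3835 in low Fe, and those of 8 smooth muscle markers were 3505 to 4211 and 4523 to 5928. The 3 red cell markers on 230A went the other way, with 976 to 1294 in high Fe and 767 to 946 in low Fe. These 3 sums did not overlap between the groups, but each sum is weighted towards its brightest gene. Of the tested genes, 0 of 4 crypt and 0 of 5 smooth muscle markers on 230A lay below 0, with medians of 0.64 and 0.56. On 230A Mki67 (0.76), Smtn (1.11) and Des (0.59) were also higher in low Fe without overlap. The 230B probe sets of Smtn, Des and Mylk overlapped. Without Pcna the crypt sums were 461 to 713 and 540 to 1149, without Mylk the smooth muscle sums were 955 to 1285 and 1132 to 1915, and without Hbb the red cell sums were 277 to 367 and 256 to 340, all with overlap (a check added after the values were seen). The 4 goblet cell markers on 230A overlapped (37004 to 52464 in high Fe, 39416 to 43823 in low Fe), and the 2 on 230B did not (33021 to 40259 and 40918 to 47987), although each of those 2 overlapped on its own. In limma 0 of the 44 tested markers on 230A and 0 of the 8 on 230B passed an adjusted p of 0.05. At an unadjusted p under 0.05 there were 8 of 44 and 1 of 8, against 6.68% and 10.2% of all tested probe sets. The share on 230A was thus above that of all probe sets. Of those 8 on 230A, 6 were higher and 2 lower in low Fe. The 2 were Hbb (-0.54) and the immune marker Cd8a (-0.66), both without overlap. The probe set of Cd8a read on 230B gave -0.81 with overlap. Summed signals of the 7 immune markers on 230A overlapped, with 6473 to 7032 in high Fe and 5913 to 7786 in low Fe. The part of these cells in the differences below was not tested, and in whole scrapings fewer cells of a type and less RNA per cell cannot be told apart.

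Of the 73 member probe sets, 37 on 230A and 11 on 230B passed the filter that left out the dimmest 40% of each type, at a signal of about 106.0 and 182.9, and were tested. They cover 43 of the 63 genes. The 25 others fell below the filter. Of the 15 on 230A, 12 stayed under 100 on all 6 arrays, and 7 stayed under 20. The latter were Sult1d1, Sult2a1, Sult2a2 and Sult2a6, which include the hydroxysteroid sulfotransferases of liver, Akr1b7, Akr1c1 and Gstt1. On 230B, where the filter lay higher, 2 of the 10 stayed under 100 on all 6 arrays and 0 under 20. Sult2a1 did not exceed 8.6 on any array and Gstt1 did not exceed 8.7. Groups did not overlap for 2 of the 15 on 230A, Akr1c3 and Sult2a2, against 10.4% of all probe sets below the filter there, and for 1 of the 10 on 230B, Gstp3, against 14.4%. Also dim were Gsta1, Akr1d1, a bile acid reductase, and the carboxylesterase Ces1c. The carboxylesterase Ces1d was below the filter on both types, at 15.2 to 256.2 on 230A and 135.9 to 214.7 on 230B. Sult1c2a, also below the filter, had uneven values: 99.2, 12.3 and 67.7 in high Fe replicates 1 to 3 and 11.3, 251.4 and 263.9 in low Fe replicates 1 to 3. Its 3 highest values lay in the arrays with the lower GAPDH ratio, whose part in them was not tested, and its groups overlapped.

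No member passed limma's test at an adjusted p of 0.05 on either array type (0 of 37 and 0 of 11), where 0.0945% of all probe sets tested on 230A (0.0840% higher, 0.0105% lower) and 0% on 230B passed. At an unadjusted p under 0.05 there were 6 of 37 members on 230A, 5 lower and 1 higher in low Fe, against 6.68% of all probe sets there (3.51% lower, 3.17% higher). On 230B there were 2 of 11, 1 in each direction, against 10.2% (5.23% lower, 4.94% higher). Leaving out low Fe replicate 2 turned the 6 into 3. The groups did not overlap for 4 of 37 members on 230A, 3 lower and 1 higher, against 11.8% of all tested (6.18% lower, 5.61% higher). On 230B they did not overlap for 4 of 11, again 3 lower and 1 higher, against 17.4% (10.3% lower, 7.11% higher).

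The log2 difference, taken as low Fe minus high Fe throughout, was below 0 for 24 of 37 members on 230A (64.9%, against 53.1% of all tested) and for 8 of 11 on 230B (72.7%, against 55.0%). That split depends on the scaling: with arrays brought to a common median it was 16 of 37 (43.2%, against 40.3%) and 7 of 11 (63.6%, against 39.9%), and scaled to hybridization controls 6 of 37 (16.2%, against 8.48%) and 7 of 11 (63.6%, against 34.5%). With 1 probe set per gene the median difference was -0.05 over 35 genes on 230A (all probe sets -0.01) and -0.27 over 10 genes on 230B (all -0.04). The 230A median was 0.02 with a common median and 0.31 when scaled to the controls, and it ran from -0.12 to -0.0042 without 1 array, the latter without high Fe replicate 3. Scaling to the controls moved the median of all probe sets to 0.342 on 230A and 0.143 on 230B, so signs below are relative to the authors' scaling. That scaling to the controls leans on 1 sample. The mean log2 control signal was 10.265 in high Fe replicate 2 and 9.2255 to 9.5165 on the other 230A arrays. On 230B it was 11.981 in that sample and 11.146 to 11.403 in the others. The scaling was not run without that sample. Scaled to the controls, the members below 0 on 230A with an unadjusted p under 0.05 lost most of their size: Sult6b2 gave -0.05, Akr1e2 and the brighter Akr1c14 probe set -0.07, and Sult1b1 and Ces1e -0.10. On 230B Akr1b10 gave -0.11, Gsto2 -0.12 and Akr1b1 -0.62. Those above 0 grew, with 0.89 for Gstm3, 0.64 for the dimmer Sult2b1 probe set and 0.76 for Fmo4.

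Precision differed by gene. The 95% interval of the log2 difference, taken probe set by probe set from limma, reached a median of 0.40 to either side of the value on 230A, from 0.24 for Gsto1 to 0.89 for Ephx2, and of 0.48 on 230B. It lay inside -1 to 1, a 2-fold change either way, for 34 of 37 members on 230A and 10 of 11 on 230B, and inside -0.5 to 0.5 for 15 and 2.

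**Figure D1:**
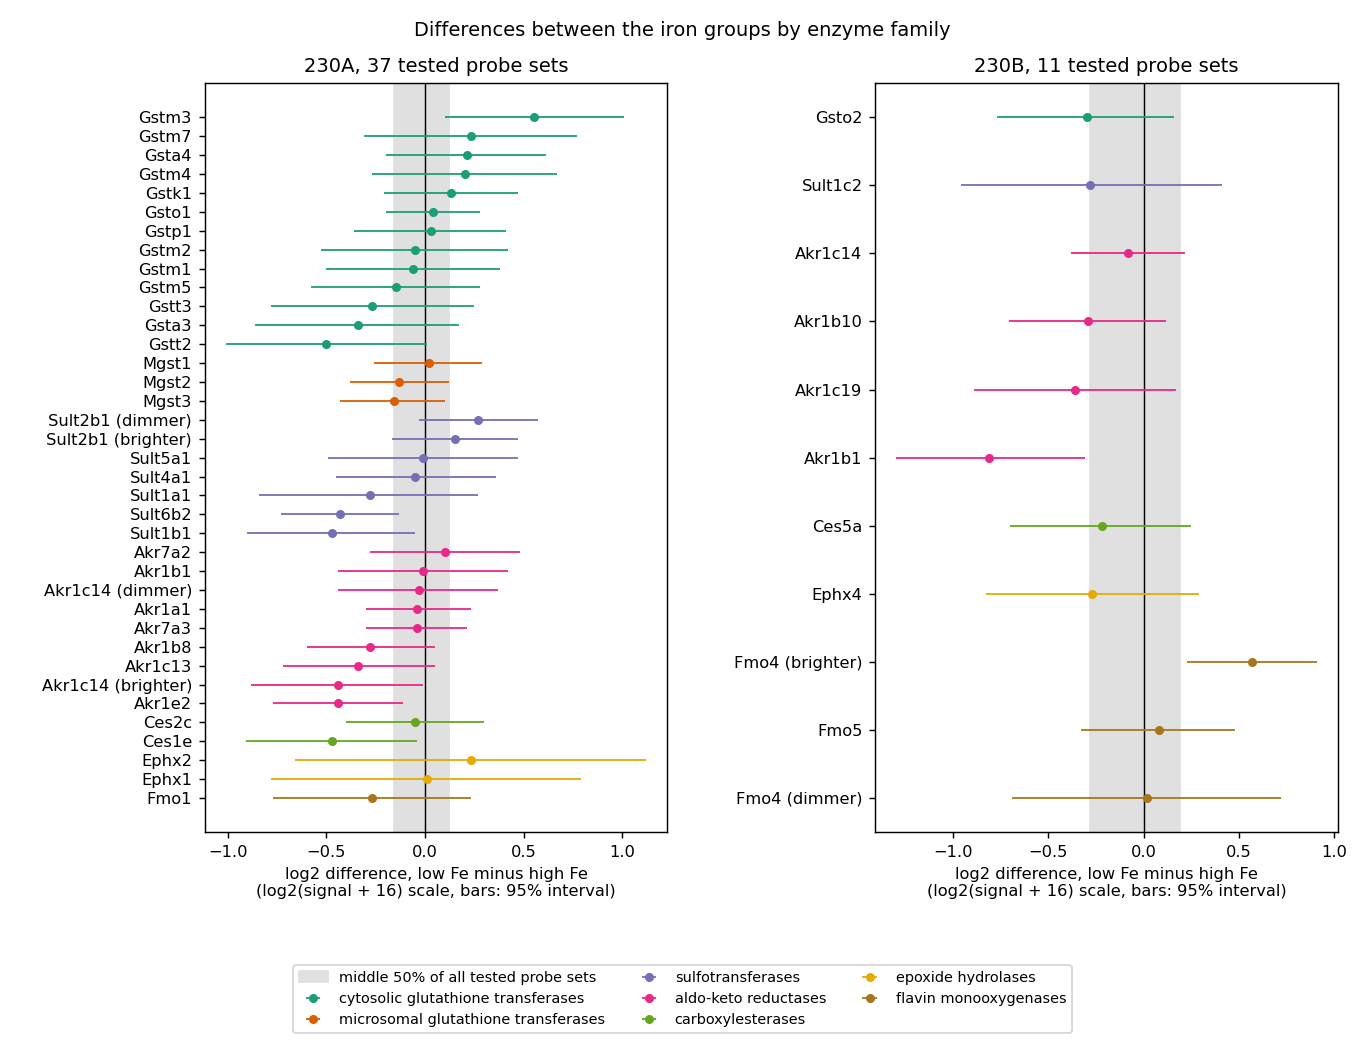
Log2 difference between low Fe and high Fe (x axis, low Fe minus high Fe on the log2(signal + 16) scale) of the 37 tested member probe sets on 230A and the 11 on 230B, coloured by family, with 95% intervals from limma and the middle 50% of all tested probe sets in grey. Gstm3 and the brighter Fmo4 probe set lie furthest above 0, and Akr1b1 on 230B lies furthest below.

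Cytosolic glutathione transferases, with Gstk1 counted among them, showed no shared direction. Of 13 tested genes on 230A, 6 lay below 0 and 7 above, with a median log2 difference of 0.03 (0.40 scaled to the controls, -0.06 when high Fe replicate 2 is left out and -0.04 when low Fe replicate 3 is) and a range from -0.50 for Gstt2 to 0.55 for Gstm3. Gstp1, the pi class enzyme and a well known NFE2L2 target whose promoter is printed above, had signals of 6348.1, 5561.2 and 6992.3 in high Fe replicates 1 to 3 and of 4978.1, 7237.2 and 7221.8 in low Fe replicates 1 to 3. The low Fe values spanned both the lowest and the highest of the 6, and the log2 difference of 0.03 ± 0.17 (SE) had a 95% interval from -0.36 to 0.41. The other genes with the core in their promoter gave -0.34 ± 0.23 for Gsta3, an alpha class enzyme, -0.15 ± 0.19 for Gstm5 and 0.23 ± 0.24 for Gstm7. Their adjusted p-values from limma were 0.800, 0.886 and 0.860, so none of them passed.

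The mu class offered the member with the largest difference above 0 on 230A. Gstm3 had signals of 187.3, 160.9 and 246.9 in high Fe and 245.0, 345.8 and 298.3 in low Fe. Only low Fe replicate 1 fell within the high Fe range, just under the highest high Fe value. The mean went from 198 ± 44.1 to 296 ± 50.4 (SD, n = 3 each), which is 1.46-fold or 0.55 ± 0.20 on the log2(signal + 16) scale, as for all folds here (limma, unadjusted p = 0.0231, adjusted p = 0.693), and it ran from 0.42 to 0.71 without 1 array. Gstm2, Gstm1 and Gstm4, its neighbours in a run of 4 genes side by side in the RefSeq annotation, gave -0.05, -0.06 and 0.20. Mu class genes are alike in sequence, and cross-hybridization between them was not tested.

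Alpha, omega, kappa and theta class members filled in the rest. Gsta4, which conjugates the lipid aldehyde hydroxynonenal, gave 0.21 ± 0.18, with the higher values in low Fe replicates 2 (1739.4) and 3 (1687.5) and the lowest of all in low Fe replicate 1 (1121.6). Gsto1, an omega class thiol transferase, had the narrowest interval of the 37: 3422.2 to 3590.0 in high Fe and 3474.6 to 3750.4 in low Fe, a log2 difference of 0.04 with a 95% interval from -0.20 to 0.28. Gsto2, its neighbour, was the only omega class member on 230B, with signals of 403.0, 357.0 and 415.1 in high Fe and 330.6, 341.3 and 272.8 in low Fe. These groups did not overlap, and the difference of -0.30 ± 0.20 did not pass (adjusted p = 0.601, limma). Gstt2, of the theta class, went from 370 ± 99.0 to 256 ± 59.6 on 230A, with overlap (-0.50 ± 0.22, adjusted p = 0.747, limma). Its probe set on 230B, below the filter, was at 46.1 to 144.5 in high Fe and 21.6 to 263.9 in low Fe. Gstk1, a transferase of mitochondria and peroxisomes, gave 0.13 ± 0.15.

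Microsomal glutathione transferases lay close together, with a median of -0.13 (0.24 scaled to the controls). Mgst1, an enzyme of the endoplasmic reticulum and outer mitochondrial membrane, ranged from 6897.1 to 8371.9 in high Fe and from 6981.4 to 8147.9 in low Fe, so the groups lay over each other. Mgst2, which can make leukotriene C, gave -0.13 ± 0.11 and Mgst3 gave -0.16 ± 0.12. For Mgst3 the signals were 9818.6, 12244.8 and 11067.9 in high Fe and 9622.9, 10209.3 and 9689.0 in low Fe. On the authors' scaling the 95% intervals of the 3 genes together spanned -0.43 to 0.29, short of a 2-fold change in either direction. They describe the spread of these samples only.

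Sulfotransferases held 2 of the 5 members of 230A below 0 at an unadjusted p under 0.05. Of 6 tested genes on 230A, 5 lay below 0, against 53.1% of all tested probe sets. The median of the 6 was -0.17 (0.18 scaled to the controls, -0.33 without high Fe replicate 1, -0.04 without high Fe replicate 2). Sult6b2 had signals of 6720.0, 7873.1 and 6712.0 in high Fe and 4768.5, 6071.7 and 5020.6 in low Fe. All 3 low Fe values lay below all 3 high Fe values, with means of 7102 ± 668 and 5287 ± 691. That is 1.35-fold lower, or -0.43 ± 0.13 on the log2 scale (limma, unadjusted p = 0.0106, adjusted p = 0.635), and it ran from -0.53 to -0.35 without 1 array.

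Sult1b1, a sulfotransferase of phenols and thyroid hormones, had signals of 3818.5, 5531.6 and 3391.5 in high Fe and 3214.5, 2598.9 and 3188.3 in low Fe. The groups did not overlap, but high Fe replicate 2 stood well above the other samples. The log2 difference was -0.47 ± 0.19 (limma, unadjusted p = 0.0333, adjusted p = 0.720), and -0.27 without that array. Sult2b1, which sulfates cholesterol and related sterols, was the 1 sulfotransferase above 0. Its dimmer probe set gave 2082.3, 1666.5 and 2146.9 in high Fe and 2272.6, 2359.1 and 2441.0 in low Fe, without overlap. The difference was 0.27 ± 0.13 (adjusted p = 0.759, limma), and 0.16 without high Fe replicate 2. Its brighter probe set gave 0.15 ± 0.14 with overlap. Sult1a1, the phenol sulfotransferase, gave -0.28 ± 0.25. Sult1c2, the only tested sulfotransferase of 230B, was at 227.7 to 367.9 in high Fe and 176.0 to 288.0 in low Fe. It gave -0.28 ± 0.30, with -0.43 without low Fe replicate 2, -0.10 without low Fe replicate 1 and -0.09 without high Fe replicate 3.

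Of 8 tested aldo-keto reductase genes on 230A, 7 lay below 0, against 53.1% of all tested probe sets (median -0.16, and 0.21 scaled to the controls). Among these 7, Akr1b1 lay at -0.01 and Akr1a1 and Akr7a3 at -0.04. On 230B 4 of 4 lay below 0, against 55.0% of all (median -0.33, with -0.20 at a common median and -0.14 scaled to the controls). Akr1e2, an anhydrofructose reductase, had signals of 1213.6, 1331.7 and 1239.2 in high Fe and 844.6, 842.3 and 1109.3 in low Fe, without overlap. Its means of 1262 ± 62.1 and 932 ± 153 gave a log2 difference of -0.44 ± 0.15 (limma, unadjusted p = 0.0143, adjusted p = 0.656). Akr1c13 on 230A and Akr1c19 on 230B, which lie side by side in the RefSeq annotation, gave -0.34 ± 0.17 and -0.36 ± 0.23, both with overlap. Akr1b8, an aldehyde reductase, gave -0.28 ± 0.14. Akr1b10, which reduces retinal and other aldehydes, had 563.2, 560.1 and 636.6 in high Fe and 444.1, 550.7 and 439.0 in low Fe on 230B. Its groups stood apart by a narrow margin at -0.29 ± 0.18 (adjusted p = 0.579, limma). A further Akr1b10 probe set on 230B, below the filter, overlapped, at 134.3 to 233.5 in high Fe and 31.9 to 260.2 in low Fe. Akr7a3 and Akr7a2, which reduce aflatoxin and other aldehydes, gave -0.04 ± 0.11 and 0.10 ± 0.17, and the aldehyde reductase Akr1a1 gave -0.04 ± 0.12. Akr7a3 was at 6238.9 to 7104.5 in high Fe and 6024.6 to 6761.0 in low Fe.

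Akr1b1, aldose reductase, which turns glucose into sorbitol, differed between its probe sets. On 230B its signals were 1036.1, 677.8 and 927.6 in high Fe and 415.2, 502.2 and 561.1 in low Fe. All low Fe values lay under all high Fe values, with means of 880 ± 184 and 493 ± 73.4, 1.75-fold lower or -0.81 ± 0.22 on the log2 scale (limma, unadjusted p = 0.00520, adjusted p = 0.454). This was the largest difference of any tested member, and it ran from -0.98 to -0.68 without 1 array. On 230A the probe set gave 1480.1, 1124.4 and 1522.7 in high Fe and 1042.1, 1539.8 and 1545.4 in low Fe, with equal means of 1376 and a log2 difference of -0.01 ± 0.19. The log2 ratio of the 230A to the 230B signal was 0.80 higher in low Fe without overlap, for which the exact permutation test (two-sided) gave p = 0.10, the smallest that 3 against 3 samples allow, and 0.240 adjusted over the 6 pairs of probe sets compared.

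Akr1c14, a hydroxysteroid dehydrogenase, had 3 tested probe sets. The brighter on 230A gave 2832.6, 3963.4 and 3729.2 in high Fe and 3313.0, 2252.2 and 2224.3 in low Fe, with low Fe replicate 1 inside the high Fe range (-0.44 ± 0.19, limma, unadjusted p = 0.0467, adjusted p = 0.737). Its 3 lowest values lay in the 3 arrays with the lower GAPDH ratio, and with these 3 arrays against the other 3 as a block the difference was -0.28. The dimmer on 230A gave -0.03 ± 0.18 and the one on 230B, with signals from 15366.6 to 18146.1, gave -0.08 ± 0.13. Between the 230A probe sets the log2 ratio of dimmer to brighter was 0.41 higher in low Fe (exact permutation p = 0.10, adjusted 0.240).

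**Figure D2:**
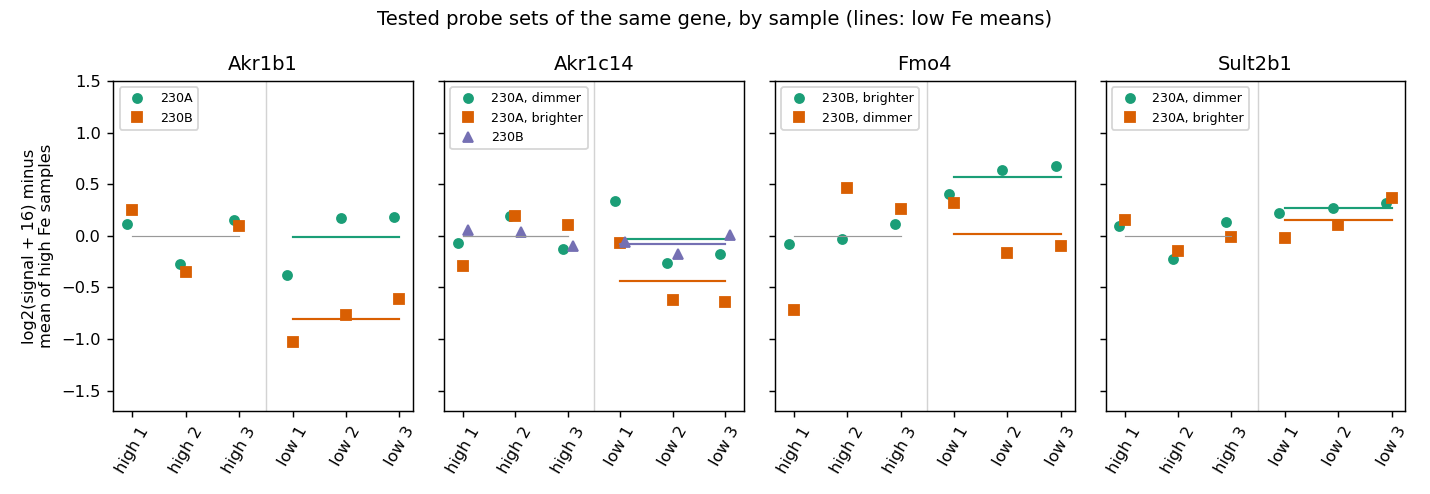
Log2(signal + 16) of each sample minus the mean of the high Fe samples (y axis) for the tested probe sets of Akr1b1, Akr1c14, Fmo4 and Sult2b1, with lines at the low Fe means. The 230B probe set of Akr1b1 lies at -0.81 and the 230A one at -0.01, while both Sult2b1 probe sets lie above 0 at 0.15 and 0.27.

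Carboxylesterases and epoxide hydrolases were few among the tested members. Ces1e gave 2321.1, 1602.2 and 2138.6 in high Fe and 1120.9, 1593.0 and 1643.6 in low Fe. High Fe replicate 2 lay between low Fe replicates 2 and 3, so the groups overlapped, and the difference of -0.47 ± 0.19 did not pass (limma, unadjusted p = 0.0367, adjusted p = 0.727). It was -0.30 without low Fe replicate 1. Ces2c, of the class that splits drug esters in the intestine, was at 1730.4 to 2420.9 in high Fe and 1777.2 to 2151.1 in low Fe (-0.05 ± 0.15). Ces5a on 230B was at 363.3 to 512.2 and 332.3 to 405.5 (-0.22 ± 0.21, -0.36 without high Fe replicate 2, and -0.13 when either high Fe replicate 3 or low Fe replicate 2 is left out). Ephx1, the microsomal epoxide hydrolase, varied within both groups, from 537.1 to 1062.0 in high Fe and from 407.3 to 931.4 in low Fe, so that its difference of 0.01 has an interval from -0.78 to 0.79. Ephx2, the soluble enzyme that acts on fatty acid epoxides, was at 422.8 to 530.5 in high Fe and at 1185.0, 329.7 and 434.6 in low Fe. Only low Fe replicate 1 lay above the high Fe range, and the difference was 0.23 ± 0.39. Ephx4 on 230B was at 254.2 to 310.2 in high Fe and 210.7 to 256.6 in low Fe (-0.27 ± 0.25). A further Ephx4 probe set there, below the filter, was at 157.1 to 177.5 and 144.2 to 220.3.

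Flavin monooxygenases included the member with the smallest unadjusted p. The brighter Fmo4 probe set on 230B had signals of 3811.2, 3946.4 and 4353.0 in high Fe and 5329.8, 6277.9 and 6462.2 in low Fe. Every low Fe value lay above every high Fe value, with means of 4037 ± 282 and 6023 ± 608. The fold was 1.49, or 0.57 ± 0.15 on the log2 scale (limma, unadjusted p = 0.00436, adjusted p = 0.434), and the difference ran from 0.52 to 0.66 without 1 array. The dimmer Fmo4 probe set gave 567.3, 1308.6 and 1131.2 in high Fe and 1178.9, 841.0 and 879.9 in low Fe, a difference of 0.02 ± 0.31. The log2 ratio of brighter to dimmer was 0.56 higher in low Fe with overlap (exact permutation p = 0.200, adjusted 0.240). Fmo5 on 230B was at 6246.0 to 7917.8 in high Fe and 6148.3 to 8477.0 in low Fe (0.08 ± 0.18). Fmo1, a neighbour of Fmo4, was at 204.3 to 353.0 in high Fe and 213.9 to 269.9 in low Fe on 230A (-0.27 ± 0.22). Its difference was -0.51 without high Fe replicate 1, -0.16 without high Fe replicate 2, -0.13 without high Fe replicate 3, -0.15 with the same block for the GAPDH ratio and 0.09 scaled to the controls.

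**Figure D3:**
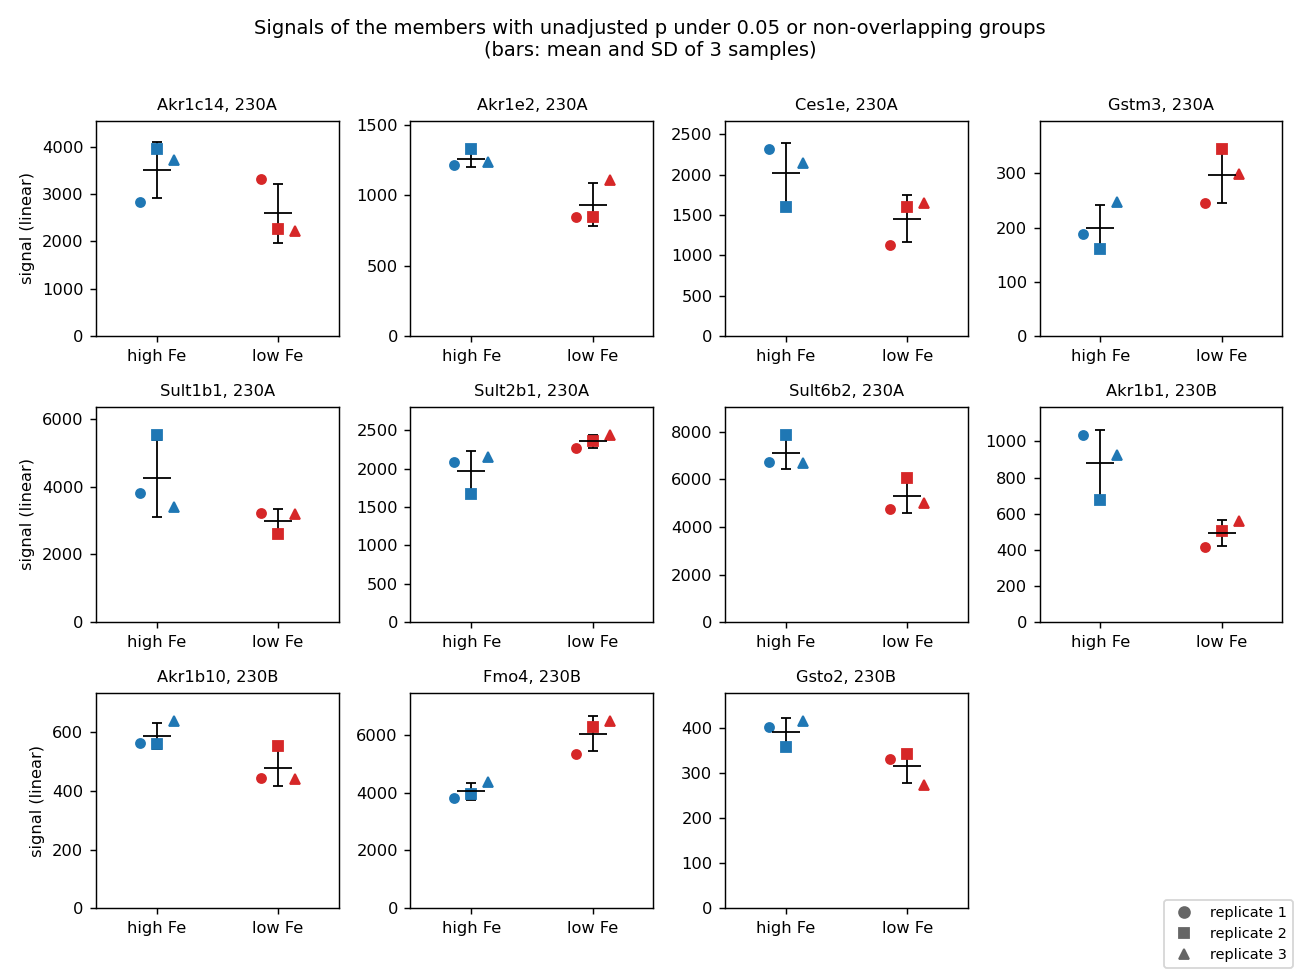
Signal on a linear scale from 0 (y axis) in the 3 high Fe and 3 low Fe samples for the 11 member probe sets with an unadjusted p under 0.05 or with groups that do not overlap, with mean and SD. Fmo4 and Sult2b1 lie higher in all low Fe samples, Akr1e2, Sult1b1, Sult6b2, Akr1b1, Akr1b10 and Gsto2 lie lower in all of them, and Akr1c14, Ces1e and Gstm3 overlap.

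The samples differed among themselves in how members lay. Low Fe replicate 1 was the lowest of the 6 arrays for 12 of 37 tested members on 230A (32.4%), where it was lowest for 17.9% of all tested probe sets, and the highest for 2 (5.41%, against 13.4%). Gstp1, Gsta3, Gsta4, Mgst2, Ces1e and Akr1b1 were among those lowest there. Low Fe replicate 3 was lowest for 2 members (5.41%, against 16.6%). These shares describe members that share arrays and are not independent of each other.

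Genes around these enzymes were read from a list of glutathione supply, sulfate supply, efflux pumps, regulators, other NFE2L2 targets and partner enzymes. On 230A 55 of 62 measured genes were tested and 0 passed adjusted p 0.05 (limma), with 2 higher and 2 lower at an unadjusted p under 0.05 and a median log2 difference of -0.02. These 4 are 7.27% of the 55, near the 6.68% of all probe sets, and their values are given as a description. On 230B 10 were tested, with 0 past either threshold. Both subunits of glutamate cysteine ligase, which makes the first step of glutathione synthesis, were among the 4, and they lay on opposite sides of 0. Gclm, the modifier subunit, had signals of 661.1, 680.7 and 544.5 in high Fe and 429.7, 410.1 and 452.6 in low Fe. The low Fe values were all lower and close together (-0.52 ± 0.14, unadjusted p = 0.00510, adjusted p = 0.523, limma). Gclc, the catalytic subunit, had 985.6, 796.6 and 1147.0 in high Fe and 1327.5, 1326.9 and 1270.1 in low Fe for its brighter probe set. These were all higher in low Fe (0.43 ± 0.15, unadjusted p = 0.0197, adjusted p = 0.681, limma), and its dimmer probe set gave 0.10 ± 0.24 with overlap.

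Srxn1, sulfiredoxin and an NFE2L2 target, was at 800.8 to 821.6 in high Fe and 931.7 to 1086.6 in low Fe (0.33 ± 0.12, unadjusted p = 0.0269, adjusted p = 0.712, limma). The array type 230B has 2 probe sets of Srxn1, and the one read gave -0.19 ± 0.43. Adh4, an alcohol dehydrogenase, was dim, at 143.4 to 221.2 in high Fe and 51.8 to 134.2 in low Fe (-0.88 ± 0.30, adjusted p = 0.680, limma). Of the 6 tested NFE2L2 targets beside these families on 230A 1 lay below 0, with a median of 0.08, and both on 230B lay below 0, with a median of -0.23. Gclm, counted here under glutathione supply, is itself a known target. The 6 efflux pumps had a median of 0.12 and the 6 genes of sulfate supply and removal one of -0.06, with 0 of either at an unadjusted p under 0.05. The 11 tested regulators on 230A, among them Nfe2l2, Ahr and Hnf4a, had a median of -0.11 and also 0 at that threshold. Hnf4a, read there by 1 of its 2 probe sets, varied widely, from 149.8 to 864.1 (-0.75 ± 0.68). Its far brighter probe set on 230B, at 17381.4 to 20550.0, gave 0.03 ± 0.14.

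**Figure D4:**
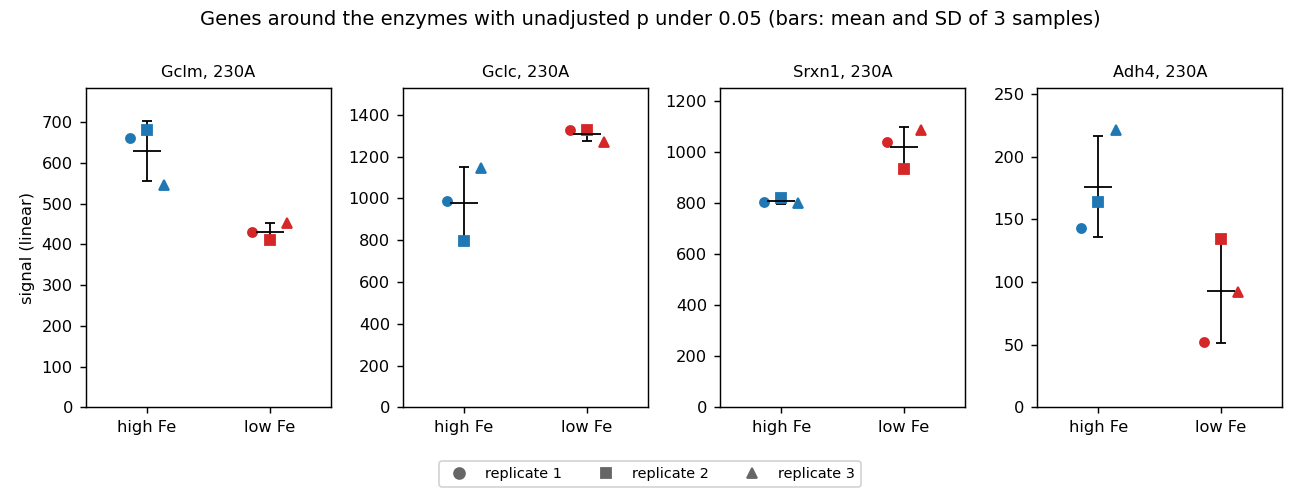
Signal on a linear scale from 0 (y axis) of Gclm, Gclc, Srxn1 and Adh4 on 230A in the 3 high Fe and 3 low Fe samples, with mean and SD. Gclm lies lower in all low Fe samples (410.1 to 452.6) and Gclc higher (1270.1 to 1327.5), and no gene shown passed an adjusted p of 0.05.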

How the data were processed

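The deposited tables hold 1 linear signal intensity per probe set and array, which the authors had scaled: with 2% of probe sets trimmed at either end, means are 500.1 (230A) and 500.2 (230B). The software that made them was not given in the sources used here. Genes were named from the platform annotation, 72 of 73 members matched RefSeq (GRCr8), and probe sets with several symbols were no members.

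Groups came from sample titles. Signals entered limma 3.58.1 (R 4.3.3) as log2(signal + 16), each type on its own and with a mean-variance trend, after leaving out those with a mean log2 value in the lowest 40% (9519 tested on 230A, 9165 on 230B). P-values were adjusted by Benjamini-Hochberg over the type. The number of arrays limits the precision. Deviations of same-numbered arrays correlated at -0.356 to -0.0993, so no block was used. On 100 probe sets shared by both types, 6 of 6 samples matched best across types under their own label. The probe set with the highest mean log2 value stood for its gene in medians.

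Values per sample are given for tested members with p or adjusted p under 0.05 or non-overlapping groups, and values or ranges for the brightest of a family and type; others were added after their values were seen. Members and lists were chosen with earlier results of these data known. The limma fit alone was tried on simulated data, with independent noise and changes of at least 1 log2 unit in brighter probe sets. No tested member differed by as much, so the simulation does not cover differences of the size seen here. Alternatives were pseudocounts of 1 and 64, no filter or the lowest 60% left out, a common median, quantile normalization, scaling to hybridization controls, eBayes without trend or robust, the replicate number or RNA quality as a block, probe sets averaged per gene, a threshold of 0.1, and leaving out each array.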

Additional observations from a re-analysis of the deposited data

How the results depend on the processing

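The count of members past adjusted p 0.05 was 0 on both types under every alternative in which it was taken, also at a threshold of 0.1. It was not taken with probe sets averaged per gene. Over the 22 named probe sets the smallest adjusted p under any alternative was 0.218, for Akr1c14 without low Fe replicate 1. The 6 members on 230A at an unadjusted p under 0.05 became 2 with a common median, 1 after scaling to hybridization controls and 3 to 7 without 1 array (3 without low Fe replicate 2). With the replicate number as a block there were 3, and the replicate numbers showed no pairing. The 2 on 230B became 4 with quantile normalization and 1 after scaling to the controls. For that scaling the control signal of high Fe replicate 2 stood well above that of the other arrays of either type. The scaling moved the median of all probe sets to 0.342 on 230A (-0.015 before) and 0.143 on 230B (-0.041 before). Medians under it on 230A were 0.31 over all families, 0.40 for cytosolic and 0.24 for microsomal glutathione transferases, 0.18 for sulfotransferases and 0.21 for aldo-keto reductases, and on 230B -0.10 over all and -0.14 for aldo-keto reductases. With a common median the aldo-keto reductases gave -0.09 on 230A and -0.20 on 230B, and all families gave -0.15 on 230B (-0.17 with quantile normalization). With no filter the sulfotransferases, then 13 genes, gave -0.01. Without 1 array they ran from -0.33 to -0.04, and the aldo-keto reductases on 230A from -0.22 to -0.12.

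Signs turned for 8 of the 22 named probe sets, with differences from -0.27 to 0.08. After scaling to the controls Akr1c14 on 230B gave 0.11, Akr7a3 0.33, Ces2c 0.32, Fmo1 0.09 and Mgst3 0.21, and with a common median Akr1c14 gave 0.05, Akr7a3 0.02 and Ces2c 0.02. With RNA quality as a block Ephx1 gave -0.09 and Gstp1 -0.07, and with quantile normalization Fmo5 gave -0.12. On 230B the RNA quality block, set by the GAPDH ratio, was balanced over the iron groups. It therefore could not move a difference on that type. Without 1 array Akr7a3 ran from -0.08 to 0.01, Ces2c from -0.18 to 0.06, Ephx1 from -0.20 to 0.38, Fmo5 from -0.02 to 0.22 and Gstp1 from -0.06 to 0.20. The cause was not tested.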

Other observations

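Probe sets annotated to more than 1 gene were outside the selection. The probe set of Gsta5 and Gsta2, alpha class glutathione transferases, had signals of 6332.0, 7509.6 and 7465.3 in high Fe and 4242.7, 6262.3 and 6824.9 in low Fe, with low Fe replicate 1 lowest, as it was for Gsta3 and Gsta4 (-0.32 ± 0.18, limma, adjusted p = 0.778). The probe set of Ces1f and Cesl1, carboxylesterases, had 192.2, 129.3 and 170.8 in high Fe and 98.7, 110.5 and 119.8 in low Fe, without overlap (-0.51 ± 0.19, limma, adjusted p = 0.720).

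Dim members below the filter were not tested, and Akr1c3, Gstp3 and Sult2a2 had groups that did not overlap, a share near that of all dim probe sets. Akr1c3 was at 96.8 to 126.4 in high Fe and 57.3 to 88.8 in low Fe, Gstp3 on 230B at 91.8 to 114.4 and 76.5 to 87.0, and Sult2a2 at 3.5 to 14.4 and 1.2 to 2.5. They were named after their values were seen.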
